A study of Mus musculus with 8 samples.

Results

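Electrons from food enter the inner mitochondrial membrane through complex I, which takes them from NADH, and pass by way of ubiquinone, complex III and cytochrome c to complex IV, where they reduce oxygen. Complexes I, III and IV pump protons as they do so, and complex V, the ATP synthase, lets the protons flow back through a rotating membrane ring and makes ATP. The catalytic subunits are shared with bacteria, while most other subunits are supernumerary, added around that core during evolution, and assembly factors such as the Ndufaf proteins build complex I without staying in it. Osteoblasts draw much of their ATP from glycolysis and also use respiration while they mature and lay down matrix.

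The genes described here are the nuclear-encoded subunits of complexes I, III, IV and V, with the Ndufaf assembly factors kept apart. They were chosen by symbol, as protein-coding genes named Nduf followed by a, b, c, s or v, Uqcr, Cox4 to Cox8, or Atp5, with at least 80 counts summed over the 8 libraries. Of 43346 genes listed, 88 protein-coding genes carried such a name and 81 reached the minimum. They comprised 38 complex I genes, 8 complex III genes, 11 complex IV genes, 17 complex V genes and 7 Ndufaf assembly factors, spread over 19 chromosomes. All 81 also passed the filter on low counts and were tested. The symbol rule takes in a few genes that are not subunits of the complex in their name: Ndufa4 is now placed in complex IV, Cox7a2l is a supercomplex factor, and Atp5s and Atp5sl are not ATP synthase subunits.

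The libraries came from MC3T3 cells, a mouse calvarial pre-osteoblast line that deposits mineralized matrix in culture. All 8 cultures were kept for 7 days in medium that supports mineralization, with ascorbic acid at 100 ug/mL and beta-glycerophosphate at 10 mM. The LLC-CM group, 4 libraries, was also given, at 25%, filtered serum-free medium from LLC1 cultures, that is from mouse Lewis lung carcinoma cells. The NCM group, 4 libraries, is taken as the vehicle control by elimination, since the labels do not spell the name out. It is a single cell line in culture, and whether replicates were separate cultures is not stated, and each p-value then reflects only how far these libraries vary, which may be technical.

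Libraries held 27264212 to 35573953 assigned reads, and 3 counts, the limit that a count of 0 allows, equalled 0.0840 to 0.111 CPM (counts scaled to a common library total with TMM factors), for counting error only. All 8 osteoblast markers checked were expressed, and all 8 were lower in LLC-CM, with summed CPM of 60280 to 74010 in LLC-CM and 90250 to 116100 in NCM. Of 7 macrophage markers listed, 6 were found and 4 were tested. Lyz2 and Fcer1g of these rose, while Itgam was at 0 and Ptprc had no count in LLC-CM and 4 in NCM. Their summed level was 18.7 to 32.3 CPM in LLC-CM and 11.7 to 17.4 CPM in NCM. Of 11 muscle markers 2 were tested and 1, Tnnt3, rose, while Myh2, Myh4, Myh6, Myh7 and Myog were at 0. Their summed level was 1.15 to 2.02 CPM in LLC-CM and 0.741 to 0.921 CPM in NCM. Of 5 adipocyte markers 1 was tested and rose, Fabp4, with a summed level of 9.65 to 16.5 CPM in LLC-CM and 3.18 to 5.06 CPM in NCM. Of 6 epithelial markers 1 was tested and rose, Muc1, while Epcam, Krt8 and Krt18 were at 0. The summed epithelial level was 1.11 to 2.24 CPM in LLC-CM and 0.318 to 0.708 CPM in NCM. Of all genes tested, 18.8% were called higher and 18.1% lower, so calls in lists of 1, 2 or 4 tested genes say little about a cell type. The part that these markers' changes play in the results below was not tested.

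The 13 subunits encoded by mitochondrial DNA, the partners of these nuclear-encoded proteins, could not be set beside them. All 37 genes listed on the mitochondrial chromosome, these 13 among them, had no count in any library, and the reason is not given in the sources used here.

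Promoters of respiratory chain genes are known for sites of NRF1 and of the ETS factor GABP (also called NRF2), which tie many subunits to common regulators. They were searched because so many of the genes moved in one direction. RefSeq promoters (GRCm38.p6, 250 bases before to 50 after the start) were matched for 69 of the 81 genes, 3 of them by an older symbol. Both strands were searched for the NRF1 motif CGCANGCG, the ETS motif CCGGAAG and the YY1 motif AAGATGGCG, and 1 promoter can hold several. The NRF1 motif was in 27 of the 69 promoters (39.1%), against 12.5% of all 17492 protein-coding genes with a promoter. The ETS motif was in 15 (21.7%, against 12.9%) and the YY1 motif in 8 (11.6%, against 2.14%). The set of all genes was not limited to expressed genes or matched for base composition. How far the excess is particular to respiratory genes was not tested. The excess was uneven over the complexes. The NRF1 motif was in 10 of 16 complex V promoters (62.5%) and 1 of 9 in complex IV (11.1%), that of Cox6a1. The ETS motif was in 2 of 5 promoters in complex III (40%) and 4 of 33 in complex I (12.1%). At least 1 of the motifs was in 59.4% of these promoters and in 24% of all. By the test given below, 18 of the 32 matched genes called higher (56.2%) and 23 of the 36 matched genes not called (63.9%) had one. Such a match is a description of letters, not a bound site. The 4 promoters shown hold motif matches next to genes of both outcomes, Atp5k and Atp5h called higher and Cox6a1 and Uqcrc1 not called. Capitals mark NRF1 and ETS matches, on either strand, and each sequence runs 5′ to 3′ along the strand of its gene.
Atp5k, chr5:108434350-108434649, minus strand: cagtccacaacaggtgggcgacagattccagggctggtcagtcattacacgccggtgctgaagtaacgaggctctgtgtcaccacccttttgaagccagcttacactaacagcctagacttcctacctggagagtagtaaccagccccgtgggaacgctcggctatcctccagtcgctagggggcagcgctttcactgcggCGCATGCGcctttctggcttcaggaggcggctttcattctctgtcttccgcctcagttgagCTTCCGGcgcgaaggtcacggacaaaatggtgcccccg
Atp5h, chr11:115419870-115420169, minus strand: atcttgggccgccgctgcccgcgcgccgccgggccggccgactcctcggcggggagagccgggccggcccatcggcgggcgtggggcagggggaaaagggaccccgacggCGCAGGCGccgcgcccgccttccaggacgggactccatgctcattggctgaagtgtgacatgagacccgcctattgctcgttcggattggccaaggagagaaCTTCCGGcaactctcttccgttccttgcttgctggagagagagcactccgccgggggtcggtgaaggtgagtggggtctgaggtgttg
Cox6a1, chr5:115348909-115349208, minus strand: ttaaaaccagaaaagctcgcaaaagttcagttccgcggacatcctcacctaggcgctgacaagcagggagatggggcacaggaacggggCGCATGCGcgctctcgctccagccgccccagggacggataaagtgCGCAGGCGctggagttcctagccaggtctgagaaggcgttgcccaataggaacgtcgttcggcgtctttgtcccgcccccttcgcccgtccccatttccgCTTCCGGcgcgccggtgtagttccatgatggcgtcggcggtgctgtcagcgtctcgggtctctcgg
Uqcrc1, chr9:108936398-108936697, plus strand: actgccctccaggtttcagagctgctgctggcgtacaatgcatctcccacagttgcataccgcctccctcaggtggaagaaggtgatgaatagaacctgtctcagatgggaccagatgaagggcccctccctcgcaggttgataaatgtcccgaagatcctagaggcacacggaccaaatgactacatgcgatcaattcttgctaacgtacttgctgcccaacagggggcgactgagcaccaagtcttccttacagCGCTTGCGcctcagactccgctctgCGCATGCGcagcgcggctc
The capitals show 1 NRF1 and 1 ETS match in Atp5k and in Atp5h, 2 NRF1 and 1 ETS match in Cox6a1, and 2 NRF1 matches in Uqcrc1.

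Medium conditioned by LLC1 cells was accompanied by small, mostly upward shifts across these genes. In edgeR's quasi-likelihood test with Benjamini-Hochberg adjustment over all 14991 genes tested, 35 of the 81 genes (43.2%) were higher in LLC-CM at an adjusted p under 0.05, where 18.8% of all genes tested were. Only 2 of the 81 (2.47%) were lower, Ndufa4l2 and Uqcrfs1, where 18.1% of all genes were. The other 44 did not pass. The log2 fold change, LLC-CM over NCM, was positive for 72 of the 81 genes and negative for 9. Its median was 0.20, where the median over all genes tested was 0.01 and the middle of their distribution ran from -0.18 (25th percentile) to 0.25 (75th percentile). All 4 LLC-CM values lay above all 4 NCM values for 26 of the 81 genes (32.1%, against 18.1% of all genes) and below them for 1, against 18.2% of all genes. The shifts were small: no member called higher exceeded 1.5-fold, while 1304 of all genes did. Levels are relative to each library's total, so a change in RNA per cell, or in the share of cells of some kind, cannot be told apart from a change within each cell.

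**Figure D1:**
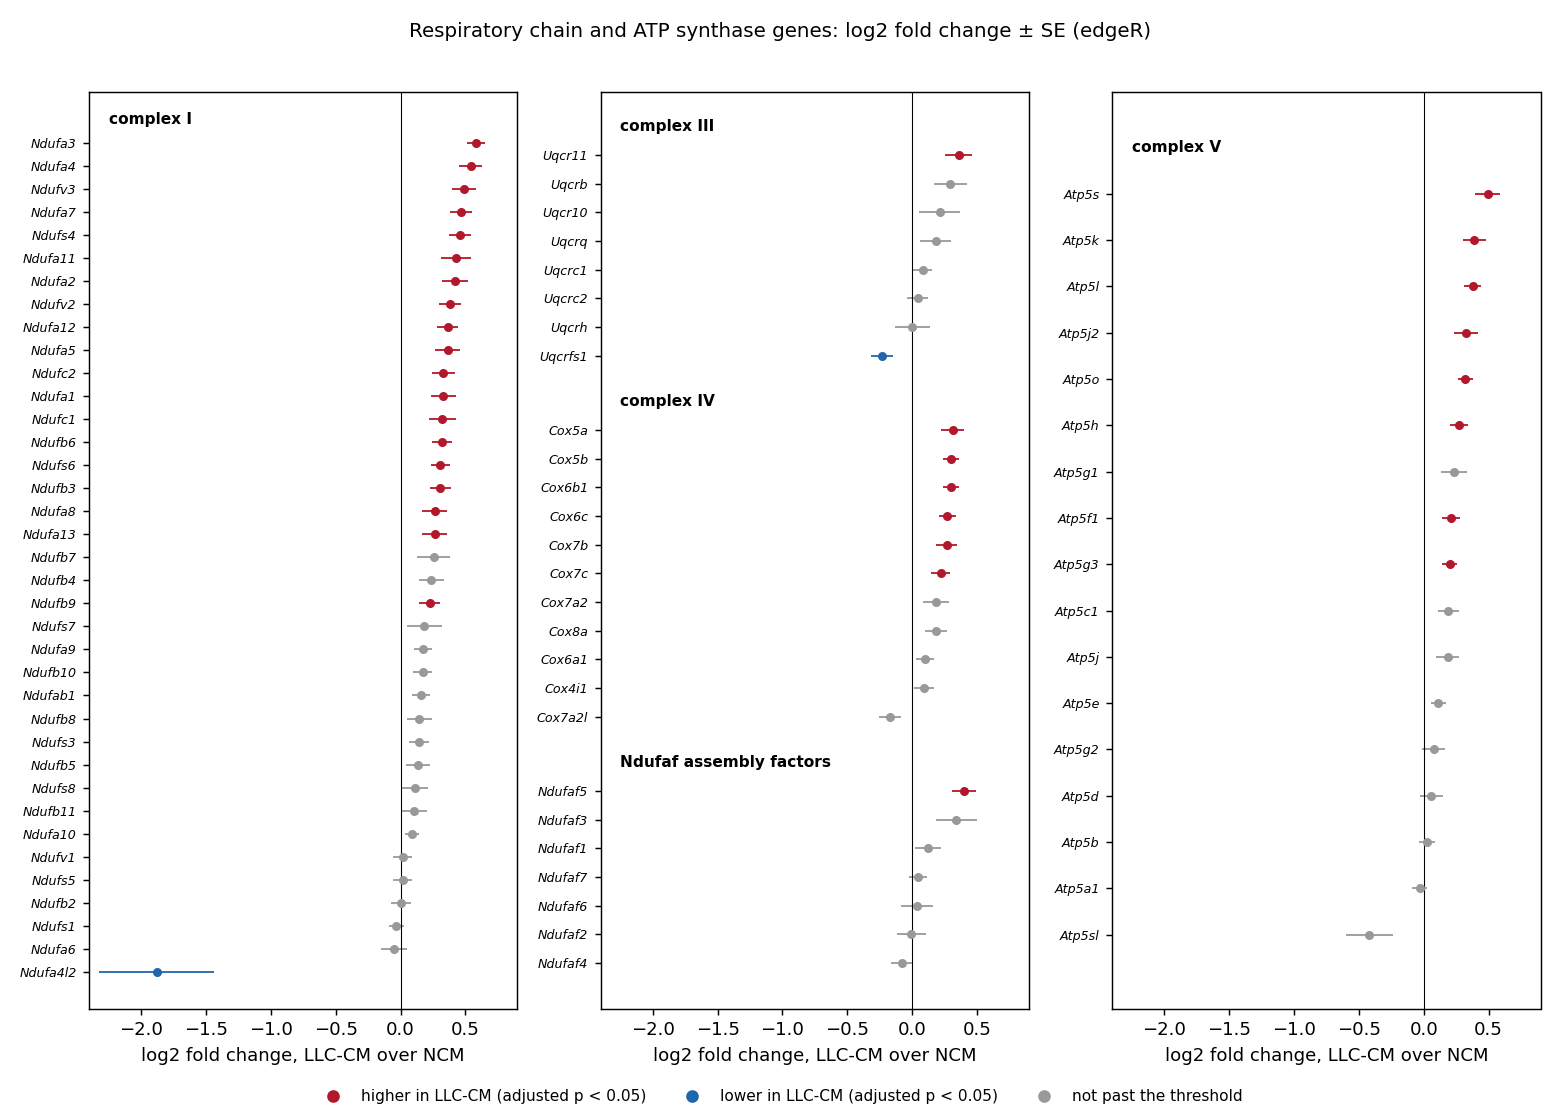
Log2 fold change of 80 of the 81 genes, LLC-CM over NCM, with its SE (edgeR, 4 libraries a group). Red points are higher and blue points lower in LLC-CM at an adjusted p under 0.05, and grey points did not pass. Within a complex genes are ordered by their fold change, from Ndufa3 at 0.58 down to Ndufa4l2 at -1.88 in complex I.

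Complex I, the largest class, held the most calls. Of its 38 genes 19 rose (50%) and 1 fell (2.63%), beside 18.8% and 18.1% of all genes tested. Its median log2 fold change was 0.25. The share that rose was 54.5% in complex IV and 47.1% in complex V, so complex I did not stand out by rate. Leaving out Ndufa4 and its paralog Ndufa4l2 gives 18 of 36 higher and none lower, with none lower at an unadjusted p under 0.05 or in DESeq2 and limma-voom. Summed over the 38 genes, the level was 2204, 2437, 2061 and 2249 CPM in LLC-CM replicates 1 to 4 and 1932, 1898, 1932 and 1827 CPM in NCM replicates 1 to 4. The groups did not overlap, and the mean was 1.18-fold higher in LLC-CM.

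Ndufa3 (ENSMUSG00000035674, chromosome 7, 3617373 to 3620163 in mm10), a small supernumerary subunit, had the smallest adjusted p of all these genes. It measured 76.1, 88.8, 74.3 and 78.2 CPM in LLC-CM and 56.1, 55.4, 48.0 and 52.3 CPM in NCM. The lowest LLC-CM library thus lay well above the highest NCM library. The log2 fold change was 0.58 ± 0.07 (SE, edgeR, adjusted p = 1.1e-05), a fold of 1.5. Ndufs4 (chromosome 13, 114287795 to 114388094), the accessory subunit whose loss gives a mouse model of Leigh syndrome, had 78.2, 94.4, 74.8 and 74.4 CPM in LLC-CM and 63.4, 62.7, 54.0 and 54.4 CPM in NCM. These groups did not overlap either, with a log2 fold change of 0.46 ± 0.08 (SE, edgeR, adjusted p = 0.00053). Ndufa7 (chromosome 17, 33824591 to 33838316), an accessory subunit of the hydrophilic arm, averaged 73.7 ± 7.96 CPM in LLC-CM and 53.5 ± 5.35 CPM in NCM (SD, n = 4 each). Ndufv3 (chromosome 17, 31520115 to 31531326), an accessory subunit of the NADH-oxidizing module, averaged 81.4 ± 6.29 CPM in LLC-CM and 57.9 ± 8.48 CPM in NCM (SD, n = 4 each). Both had separate groups, with log2 fold changes of 0.46 ± 0.09 and 0.49 ± 0.09 (SE, edgeR, adjusted p = 0.00056 and 0.00086).

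The core and the supernumerary subunits of complex I were then described apart. This split follows textbook structure and was made after the values were seen, so no test was run on it. Of 29 supernumerary subunits 17 rose (58.6%), with a median log2 fold change of 0.26. Of the 7 core subunits, which bind the flavin, the iron-sulfur clusters and the quinone, 1 rose (14.3%, beside 18.8% of all genes). That one was Ndufv2, which carries an iron-sulfur cluster, at 115, 149.8, 111.1 and 116.6 CPM in LLC-CM and 100.2, 88.8, 91.1 and 97.7 CPM in NCM (log2 fold change 0.38 ± 0.09, SE, edgeR, adjusted p = 0.0027). Ndufs1, the subunit with the most iron-sulfur clusters, measured 102.0, 112.0, 100.8 and 101.5 CPM in LLC-CM and 112.3, 105.8, 99.2 and 108.4 CPM in NCM. Those ranges overlapped almost fully, with a log2 fold change of -0.03 ± 0.06. Ndufv1, which binds NADH and flavin, averaged 75.6 ± 6.81 CPM in LLC-CM and 74.8 ± 6.19 CPM in NCM (SD, n = 4 each). The core subunits Ndufs3, Ndufs7 and Ndufs8 had log2 fold changes of 0.14, 0.18 and 0.11 and overlapping groups.

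Among supernumerary subunits the rise reached Ndufa1, Ndufa2, Ndufa5, Ndufa8, Ndufa11, Ndufa12, Ndufa13, Ndufb3, Ndufb6, Ndufb9, Ndufc1, Ndufc2 and Ndufs6 as well. Their log2 fold changes ran from 0.23 for Ndufb9 to 0.43 for Ndufa11. Not all followed. Ndufb2 had a log2 fold change of 0.00 ± 0.08, Ndufs5 of 0.02 ± 0.07 and Ndufa6 of -0.05 ± 0.10 (SE), and none of these passed the threshold. Some of these counts can include other genes' reads, because the library kit does not mark strand. In GENCODE M21 an opposite-strand gene covers 39.0% of the exonic bases of Ndufb6, 30.0% of those of Ndufa13 and 11.5% of those of Ndufa2. A same-strand gene, which strand would not tell apart, covers 19.5% of those of Ndufb9. The call of Ndufb9 was close to the threshold (edgeR, adjusted p = 0.039). Ndufa12 and Ndufs5 each have a near-identical copy elsewhere in the genome, with 697 and 636 summed counts beside 6398 for Ndufa12 and 6205 for Ndufs5.

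Ndufa4 and Ndufa4l2 moved in opposite directions. Ndufa4 (ENSMUSG00000029632, chromosome 6, 11900373 to 11907446) is a subunit now placed in cytochrome c oxidase. By deposited gene length it had the highest level per length of the 81 genes, a mean of 247 RPKM (CPM per kilobase of that length). The rank depends on the deposited length of 492 bases, where GENCODE M21 gives Ndufa4 1381 exonic bases. Ndufa4 measured 146.2, 171.3, 117.9 and 140.3 CPM in LLC-CM and 103.7, 95.3, 94.0 and 102.8 CPM in NCM. Every LLC-CM library was above every NCM library, with a log2 fold change of 0.54 ± 0.09 (SE, edgeR, adjusted p = 0.00026). Ndufa4l2 (ENSMUSG00000040280, chromosome 10, 127514939 to 127517152), a paralog induced by hypoxia-inducible factor and known to restrain respiration in low oxygen, was sparse. It measured 0.933, 2.77, 5.74 and 1.40 CPM in LLC-CM and 9.10, 12.2, 8.97 and 10.2 CPM in NCM. The groups did not overlap, although the LLC-CM libraries differed several-fold among themselves, replicate 3 being the highest. The log2 fold change was -1.88 ± 0.44 (SE, edgeR, adjusted p = 0.0080), 3.68-fold lower. Without LLC-CM replicate 2 the call was lost at a log2 fold change of -1.88 (edgeR, adjusted p = 0.055). Without LLC-CM replicate 3 the log2 fold change was -2.60 (edgeR, adjusted p = 5.2e-06). Of the reads per kilobase of the pair, Ndufa4l2 made up 1.02 ± 0.96% in LLC-CM and 4.99 ± 0.80% in NCM (SD, n = 4 each), a description with no test. These shares depend on the deposited lengths too, and by counts they were 1.96% in LLC-CM and 9.29% in NCM.

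**Figure D2:**
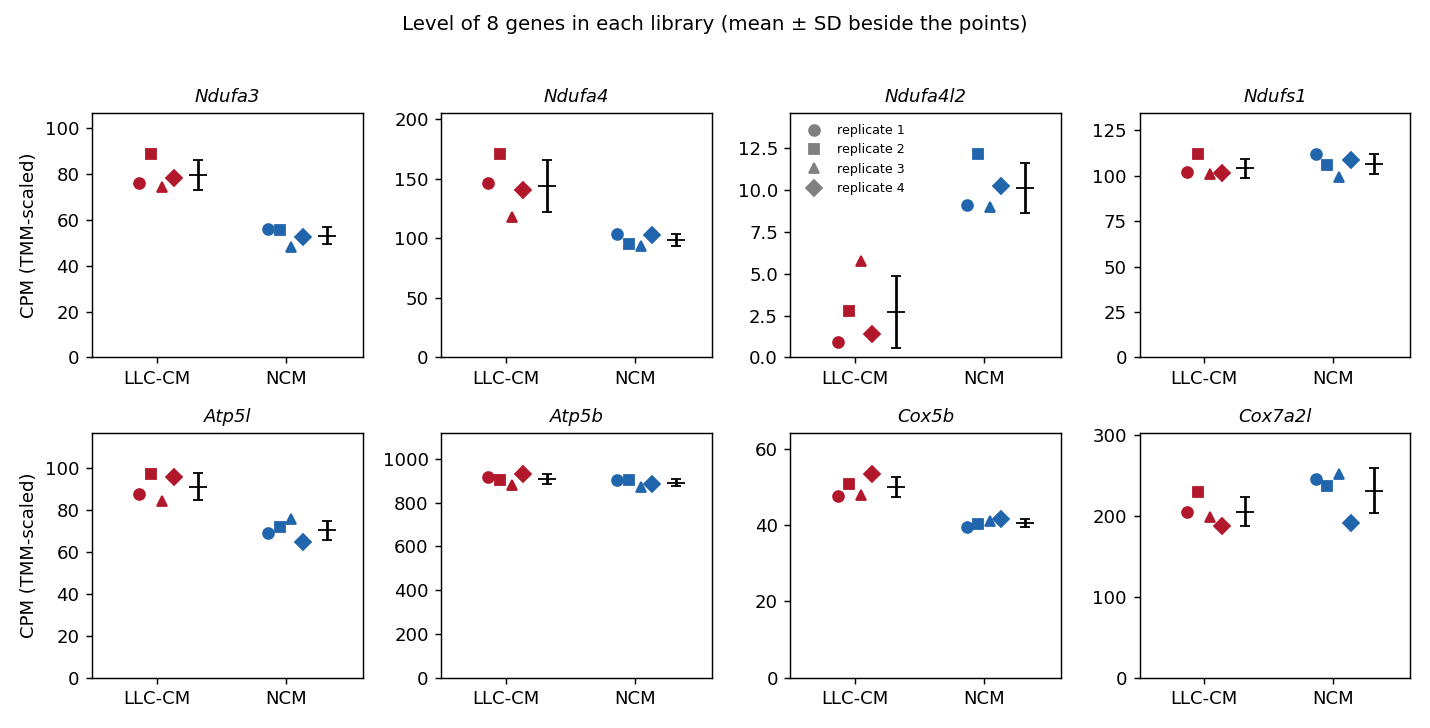
CPM of 8 genes in each of the 4 LLC-CM and 4 NCM libraries, on axes from 0, with the mean ± SD beside the points and 1 marker shape per replicate number. Ndufa3, Ndufa4, Atp5l and Cox5b lay higher in every LLC-CM library, Ndufa4l2 lay lower, and Ndufs1, Atp5b and Cox7a2l overlapped.

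In complex III few genes passed the test. Of its 8 genes 1 rose and 1 fell (12.5% each, beside 18.8% and 18.1% of all genes). Groups did not overlap for 18.1% (LLC-CM above) and 18.2% (LLC-CM below) of all genes, and overlapped for all 8 of these. Their log2 fold changes had a median of 0.13, with 7 above 0 and 1 below, although that of Uqcrh, 0.0017, was below 0 with DESeq2 size factors. Their summed level was 579, 681, 497 and 540 CPM in LLC-CM and 572, 541, 543 and 541 CPM in NCM. LLC-CM spanned a wider range than NCM on both sides. Uqcr11 (chromosome 10, 80402997 to 80406830), the smallest subunit, measured 29.7, 26.8, 30.5 and 35.3 CPM in LLC-CM and 21.6, 23.7, 28.7 and 21.5 CPM in NCM. NCM replicate 3 lay above the lowest LLC-CM library, and the log2 fold change was 0.36 ± 0.10 (SE, edgeR, adjusted p = 0.014). Uqcrfs1 (chromosome 13, 30540308 to 30545362), the Rieske iron-sulfur protein that passes electrons on to cytochrome c1, measured 47.6, 56.2, 42.4 and 41.7 CPM in LLC-CM and 53.9, 54.8, 56.7 and 55.0 CPM in NCM. LLC-CM replicate 2 sat within the NCM range and the other LLC-CM libraries below it. Its log2 fold change of -0.23 ± 0.08 was close to the threshold (SE, edgeR, adjusted p = 0.043), and the call was lost in 10 of 20 alternative settings, as that of Uqcr11 was in 6.

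The most abundant complex III gene per length was Uqcrh, the hinge protein that helps cytochrome c dock. It measured 173.3, 219.1, 128.5 and 140.7 CPM in LLC-CM and 176.2, 161.5, 158.1 and 164.6 CPM in NCM. Both groups averaged about alike, at 165.4 ± 40.5 CPM in LLC-CM and 165.1 ± 7.86 CPM in NCM (SD, n = 4 each), while LLC-CM was far more spread. Uqcrb, the subunit next to the quinone pocket, averaged 82.6 ± 16.4 CPM in LLC-CM and 67.3 ± 7.55 CPM in NCM, with a log2 fold change of 0.29 ± 0.13 that missed the threshold. The core proteins Uqcrc1 and Uqcrc2 had log2 fold changes of 0.08 ± 0.07 and 0.04 ± 0.08 (SE), and the small subunits Uqcr10 and Uqcrq of 0.21 ± 0.16 and 0.18 ± 0.12 (SE). None of these 4 passed.

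In complex IV 6 of 11 genes rose (54.5%, beside 18.8% of all genes) and none fell. Their median log2 fold change was 0.22. DESeq2, limma-voom and an unadjusted p under 0.05 in edgeR gave the same counts, 6 and 0. Summed, the 11 genes measured 1132, 1245, 1050 and 1113 CPM in LLC-CM and 1036, 1029, 1088 and 975 CPM in NCM, so that NCM replicate 3 lay above LLC-CM replicate 3. Cox5b (ENSMUSG00000061518, chromosome 1, 36691484 to 36693681), a zinc-binding subunit on the matrix side, measured 47.6, 50.8, 48.0 and 53.5 CPM in LLC-CM and 39.4, 40.2, 41.0 and 41.7 CPM in NCM. The groups were well apart, with a log2 fold change of 0.30 ± 0.06 (SE, edgeR, adjusted p = 0.0012). A near-identical copy of Cox5b, Gm11273, held 955 summed counts beside 11136 for Cox5b. Cox6b1, a subunit on the intermembrane-space side where cytochrome c binds, averaged 124 ± 10.3 CPM in LLC-CM and 100.7 ± 2.08 CPM in NCM (SD, n = 4 each; log2 fold change 0.30 ± 0.06, SE, edgeR, adjusted p = 0.0015).

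Cox6c and Cox7b, single-pass membrane subunits, had separate groups and rose by smaller amounts, with log2 fold changes of 0.27 ± 0.07 and 0.27 ± 0.08 (SE, edgeR, adjusted p = 0.0039 and 0.018). Cox5a, which contacts Cox4 on the matrix side, averaged 45.5 ± 4.89 CPM in LLC-CM and 36.6 ± 3.73 CPM in NCM (SD, n = 4 each). NCM replicate 4, at 42.2 CPM, overlapped the LLC-CM range of 41.5 to 52.5 CPM. Its log2 fold change was 0.31 ± 0.09 (SE, edgeR, adjusted p = 0.011), and an opposite-strand gene covers 12.8% of its exonic bases. Cox7c rose by the least of the 6 (0.22 ± 0.08, SE, edgeR, adjusted p = 0.033). Cox4i1, the subunit through which ATP and ADP regulate the enzyme, averaged 187.2 ± 9.95 CPM in LLC-CM and 175.7 ± 20.5 CPM in NCM (SD, n = 4 each; log2 fold change 0.09 ± 0.08, SE). Cox6a1, Cox7a2 and Cox8a had log2 fold changes of 0.10, 0.18 and 0.18 and did not pass. Cox7a2l, which joins complex III to complex IV in supercomplexes, was the one gene of complex IV with a negative log2 fold change, -0.17 ± 0.09 (SE, edgeR, adjusted p = 0.14). It measured 204.8, 230.2, 199.3 and 188.2 CPM in LLC-CM and 245.7, 237.2, 252.4 and 191.2 CPM in NCM, and NCM replicate 4 lay within the LLC-CM range.

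Several complex IV subunits exist in tissue-specific forms, and these libraries held the ubiquitous ones. The heart and muscle forms Cox7a1 and Cox6a2 had 24 and 16 counts over all 8 libraries, the testis forms Cox6b2 and Cox7b2 had 1 each, and Cox8b and Cox8c had none. Cox4i2, the form known from lung and induced in low oxygen, had 0, 0, 1 and 0 counts in LLC-CM and 8, 1, 2 and 6 counts in NCM. These 7 genes are those left out by the minimum of 80 counts. Cox7a1 at 24 was the nearest below it and Atp5sl at 905 the nearest above it. By reads per kilobase, Cox4i1 made up 99.8% of its family in NCM and nearly all of it in LLC-CM. In the Cox7a family Cox7a2 made up 40.3 ± 2.76% in LLC-CM and 34.8 ± 3.44% in NCM, and Cox7a2l made up 59.7 ± 2.76% in LLC-CM and 65.0 ± 3.43% in NCM (SD, n = 4 each). The LLC-CM range for Cox7a2, 36.9% to 43.5%, and the NCM range, 32.4% to 39.9%, overlapped.

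In complex V 8 of 17 genes rose (47.1%, beside 18.8% of all genes) and none fell. Their median log2 fold change was 0.20. DESeq2 and limma-voom also called 8 and 0, and at an unadjusted p under 0.05 edgeR had 10 higher and 1 lower, Atp5sl. Summed, they measured 3021, 3214, 2853 and 3067 CPM in LLC-CM and 2816, 2789, 2801 and 2744 CPM in NCM. The groups did not overlap, and the mean was 1.09-fold higher in LLC-CM. The calls fell unevenly over the parts of the enzyme, a division that was also made after the values were seen and is given with no test. Of 7 peripheral stalk and membrane subunits 6 rose, with a median of 0.32, while of the 5 subunits of the catalytic head and central stalk none did, with a median of 0.06.

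The membrane subunits Atp5k, Atp5l and Atp5j2, known as e, g and f, hold synthase dimers together or brace the proton channel. Atp5l (ENSMUSG00000038717, chromosome 9, 44913250 to 44920742) measured 87.3, 97.1, 84.1 and 95.6 CPM in LLC-CM and 68.8, 71.7, 75.5 and 64.5 CPM in NCM. Its groups were separate, with a log2 fold change of 0.38 ± 0.07 (SE, edgeR, adjusted p = 0.00036). Of its 9 near-identical copies 5 had reads, the most-read one 1871 summed counts beside 19770. Atp5k (chromosome 5, 108433244 to 108434448), whose promoter is printed above, measured 55.1, 58.5, 42.2 and 49.5 CPM in LLC-CM and 37.6, 38.9, 40.6 and 39.3 CPM in NCM. LLC-CM replicate 3 lay just above the NCM range, and the log2 fold change was 0.39 ± 0.09 (SE, edgeR, adjusted p = 0.0024). Atp5j2 averaged 135.4 ± 22.3 CPM in LLC-CM and 107.9 ± 5.74 CPM in NCM (SD, n = 4 each; log2 fold change 0.33 ± 0.09, SE, edgeR, adjusted p = 0.014), with 1 pair of libraries overlapping.

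The peripheral stalk keeps the head from turning with the rotor. Atp5o, the oligomycin sensitivity protein at its top, measured 169.8, 186.7, 166.3 and 181.2 CPM in LLC-CM and 141.6, 144.2, 147.0 and 130.8 CPM in NCM. The groups lay well apart (log2 fold change 0.32 ± 0.06, SE, edgeR, adjusted p = 0.00052), and an opposite-strand gene covers 18.1% of its exonic bases. Atp5h, stalk subunit d, averaged 214.4 ± 21.4 CPM in LLC-CM and 177.7 ± 6.30 CPM in NCM (SD, n = 4 each; log2 fold change 0.27 ± 0.07, SE, edgeR, adjusted p = 0.0063). A near-identical copy, Gm10250, held 4220 summed counts beside 47983 for Atp5h. Atp5f1, stalk subunit b, rose by the least of these (0.21 ± 0.07, SE, edgeR, adjusted p = 0.029). Atp5j, coupling factor 6, had a log2 fold change of 0.18 ± 0.09 and did not pass. It shares 12.7% of its exonic bases with Gabpa, an opposite-strand gene that was lower in LLC-CM.

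The catalytic head differed from this. Atp5b, the beta subunit that makes ATP and the most abundant head gene per length, measured 916.3, 902.4, 880.3 and 931.9 CPM in LLC-CM and 904.1, 901.3, 872.3 and 886.0 CPM in NCM. Its log2 fold change was 0.03 ± 0.06 (SE), with ranges that overlapped. Atp5a1, the alpha subunit, averaged 463.4 ± 14.1 CPM in LLC-CM and 473.9 ± 16.6 CPM in NCM (SD, n = 4 each). The central stalk subunits Atp5c1, Atp5d and Atp5e had log2 fold changes of 0.19 ± 0.08, 0.06 ± 0.09 and 0.11 ± 0.06 (SE). None of the 5 passed the threshold in edgeR, DESeq2 or limma-voom, and 1, Atp5c1, had an unadjusted p under 0.05, which does not show that the others were equal in the groups.

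The proton-carrying c-ring is built from 1 protein that 3 genes encode. Atp5g3, the most abundant of them, averaged 164.5 ± 8.71 CPM in LLC-CM and 143.2 ± 7.65 CPM in NCM (SD, n = 4 each) and rose (0.20 ± 0.06, SE, edgeR, adjusted p = 0.015). Atp5g1 and Atp5g2 had log2 fold changes of 0.23 ± 0.10 and 0.08 ± 0.09 (SE) and did not pass. Atp5g1 did pass in 4 of 20 alternative settings, among them without LLC-CM replicate 1 (edgeR, adjusted p = 0.012). By reads per kilobase Atp5g3 made up 54.7 ± 3.11% of the family in LLC-CM and 53.2 ± 3.80% in NCM, and Atp5g1 made up 10.8 ± 1.42% in LLC-CM and 10.3 ± 0.41% in NCM (SD, n = 4 each). These shares overlapped between the groups. The count of Atp5g1 is less certain, since its near-identical copy Gm10039 held 2734 summed counts beside 16750. The 2 genes with an Atp5 name that encode no subunit differed in direction. Atp5s, a factor linked to the stalk, rose, at 11.6, 12.9, 10.8 and 11.8 CPM in LLC-CM and 8.12, 8.92, 8.37 and 8.01 CPM in NCM (0.49 ± 0.10, SE, edgeR, adjusted p = 0.00090). Atp5sl, an assembly factor of the complex I membrane arm, averaged 3.18 ± 0.28 CPM in LLC-CM and 4.27 ± 1.10 CPM in NCM (SD, n = 4 each), did not pass, and had the lowest level per length of the 81 genes.

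Of the 7 Ndufaf assembly factors 1 rose (14.3%, beside 18.8% of all genes tested) and none fell. Their median log2 fold change was 0.05. DESeq2 and limma-voom gave the same counts, and at an unadjusted p under 0.05 edgeR had 2 higher and 0 lower. Ndufaf5 (chromosome 2, 140170649 to 140203689), which hydroxylates an arginine of the core subunit Ndufs7 during assembly, measured 19.2, 23.6, 20.2 and 18.5 CPM in LLC-CM and 14.8, 15.8, 14.8 and 16.4 CPM in NCM. Its groups did not overlap, with a log2 fold change of 0.40 ± 0.09 (SE, edgeR, adjusted p = 0.0031). Ndufaf7, a mitochondrial methyltransferase, averaged 46.1 ± 3.25 CPM in LLC-CM and 44.6 ± 2.14 CPM in NCM (SD, n = 4 each). Ndufaf3, which acts in the early quinone-side intermediate, had a log2 fold change of 0.34 ± 0.16 (SE, edgeR, adjusted p = 0.11), at 5.61 CPM in LLC-CM and 4.42 CPM in NCM on average. Ndufaf1, Ndufaf2, Ndufaf4 and Ndufaf6 ranged from -0.08 to 0.12, with overlapping groups. An opposite-strand gene covers 65.6% of the exonic bases of Ndufaf2, so its value is uncertain. Summed over the 7 factors, the level averaged 139 ± 9.95 CPM in LLC-CM and 131 ± 6.34 CPM in NCM (SD, n = 4 each).

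The 4 LLC-CM libraries were spread more widely than the 4 NCM libraries for all complexes. The 81 genes together took 0.707%, 0.767%, 0.662% and 0.713% of the counts in LLC-CM and 0.644%, 0.644%, 0.636% and 0.634% in NCM. LLC-CM replicate 2 was the highest and LLC-CM replicate 3 the lowest LLC-CM library in each of the 5 summed levels, and LLC-CM replicate 2 was also the shallowest library. Set against the NCM mean of each gene, the median log2 deviation over the 81 genes was 0.18, 0.33, 0.08 and 0.19 in the LLC-CM libraries. It was -0.02 to 0.01 in the NCM libraries. The NCM values centre on 0 by construction, so only the range within each group bears on its spread. Without LLC-CM replicate 2, 30 of the 81 genes were called higher, where 18% of all genes tested were, and 2 lower. The median log2 fold change was then 0.16, beside 0.0071 over all genes tested.

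**Figure D3:**
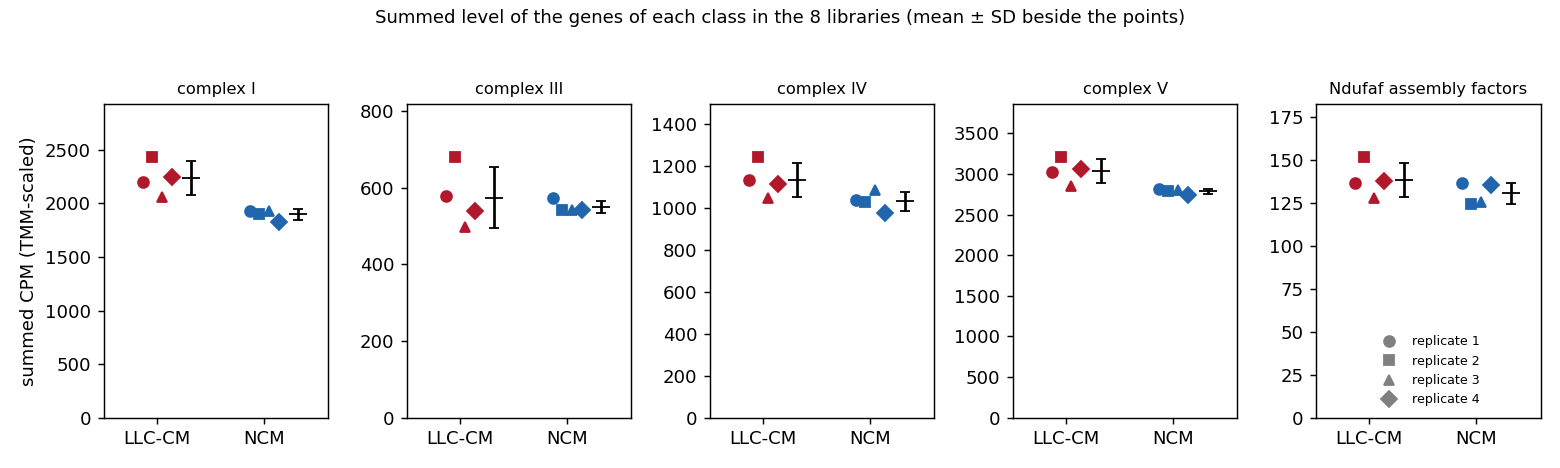
Summed CPM of the genes of each complex and of the Ndufaf factors in the 4 LLC-CM and 4 NCM libraries, on axes from 0, with the mean ± SD beside the points. The groups did not overlap in complex I (2237 ± 155 CPM in LLC-CM, 1897 ± 49.3 CPM in NCM) and complex V (3039 ± 149 CPM in LLC-CM, 2788 ± 31.3 CPM in NCM), and overlapped in the other panels, and replicate 2 was the highest LLC-CM library in each.

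Gene length went along with the fold change. The median length in the deposited table was 1485 bases for the 81 genes and 3295 bases for all genes tested. Across the 81 genes Spearman's rho of log2 fold change with length was -0.31, and across all genes tested it was -0.20, over genes that share the same 8 libraries. Lengths also differed between the parts described above, with medians of 1217 bases for supernumerary and 2178 bases for core complex I subunits. They were 1465 bases for the stalk and membrane subunits and 1928 bases for the head of complex V. With each library's length trend removed in the same test, 22 of the 81 genes were higher (18.0% of all genes) and 3 lower, and the median log2 fold change was 0.13. By complex the genes called higher were then 11 in complex I, 0 in complex III, 3 in complex IV, 7 in complex V and 1 among the Ndufaf factors. In complex I 9 of 29 supernumerary and 1 of 7 core subunits were then called, and in complex V 5 of 7 stalk and membrane subunits and 0 of 5 head subunits. Ndufa3 kept a log2 fold change of 0.44 (edgeR, adjusted p = 4.2e-05), while Cox7a2l, at -0.29, passed as lower (edgeR, adjusted p = 0.012).

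**Figure D4:**
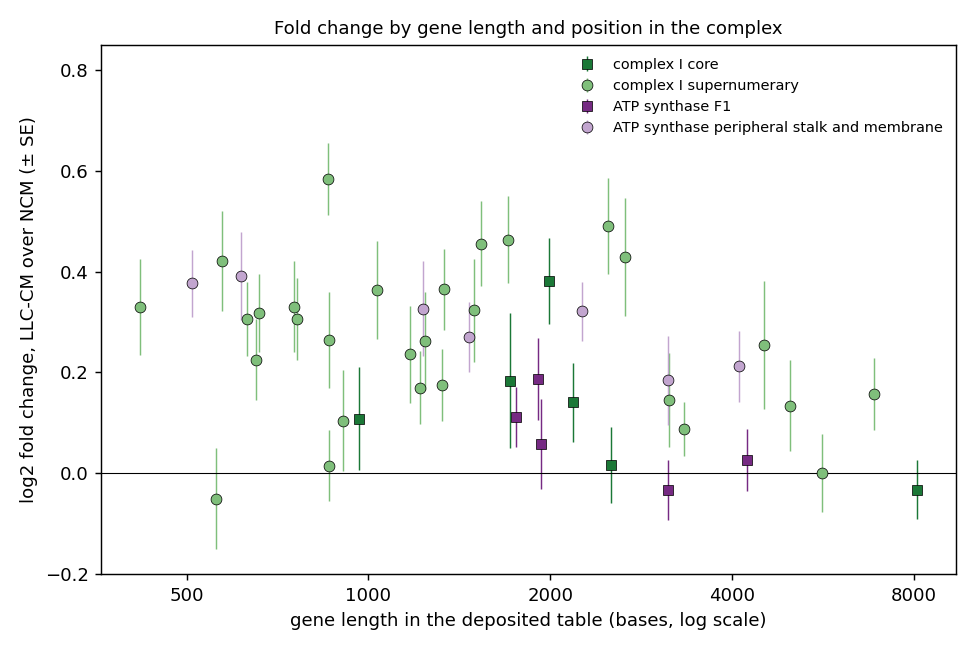
Log2 fold change (LLC-CM over NCM, ± SE) against gene length in the deposited table, on a log axis, for 6 of the 7 complex I core (dark green squares) and the supernumerary (light green circles) subunits and for the ATP synthase head (dark purple squares) and stalk and membrane (light purple circles) subunits. Ndufa3 at 858 bases lies highest, followed by Ndufv3 at 2490 bases. Ndufa1, the shortest at 419 bases, lies at 0.33, and Ndufa6 at 560 bases lies at -0.05. Ndufs1 at 8086 bases lies near 0, and the head subunits lie at or below 0.19.

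Genes that work with these complexes were counted in lists of their own. Of all genes tested, 18.8% were called higher and 18.1% lower. Counts such as 2 of 9, 1 of 6 or 1 of 5 lie near that share and are no result about their list. Of the 4 subunits of complex II, which feeds electrons from succinate and is wholly nuclear-encoded, 2 rose and none fell. These were Sdhb, its iron-sulfur subunit, at 55.9 ± 2.60 CPM in LLC-CM and 47.1 ± 2.95 CPM in NCM (SD, n = 4 each), and Sdhc, a membrane anchor, with a log2 fold change of 0.17 ± 0.06 (SE). Of 5 electron carriers and chain subunits outside the name rule 1 rose, Etfb, a subunit of the flavoprotein that delivers electrons from fat oxidation. It averaged 46.4 ± 6.66 CPM in LLC-CM and 31.5 ± 3.58 CPM in NCM (SD, n = 4 each). Cyc1 and Cycs, cytochromes c1 and c, both had log2 fold changes of 0.07 and did not pass. Other complex I assembly factors rose in 2 of 9 cases, Lyrm2 and Tmem126b. Those of complex II rose in 1 of 2, Sdhaf2, and those of complex III in 1 of 6, Uqcc2 (log2 fold change 0.45 ± 0.08, SE). Complex IV assembly factors rose in 7 of 23, among them Cox19 and Cox17, of the copper pathway, at 0.42 and 0.27, and Pet100 at 0.64. None of the genes in these lists fell in edgeR as first fitted or in limma-voom. DESeq2, and edgeR at an unadjusted p under 0.05, each had 1 complex IV assembly factor lower. So did edgeR with the length trend removed, which called 18.0% of all genes higher. It called 1 of 4 complex II subunits, 0 of 2 complex II assembly factors and 5 of 23 such factors of complex IV higher.

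ATP synthase assembly factors and its inhibitor rose in 2 of 6 cases, Tmem242 and Atpif1. Atpif1, which blocks the enzyme when it would run backwards, averaged 70.6 ± 5.07 CPM in LLC-CM and 54.5 ± 3.00 CPM in NCM (SD, n = 4 each; log2 fold change 0.37 ± 0.07, SE, edgeR, adjusted p = 0.00038). Of 3 supercomplex factors Stoml2 rose. Among 7 tested carriers of ATP, phosphate and metabolites 2 rose and 2 fell. In lists this small such counts are read beside 18.8% of all genes called higher and 18.1% lower. The adenine nucleotide exchangers differed in direction: Slc25a4 averaged 337.3 ± 27.01 CPM in LLC-CM and 280.4 ± 12.7 CPM in NCM, and Slc25a5 averaged 241 ± 9.19 CPM in LLC-CM and 289 ± 19.9 CPM in NCM (SD, n = 4 each). Both passed (log2 fold changes 0.27 ± 0.07 and -0.26 ± 0.06, SE, edgeR, adjusted p = 0.0060 and 0.0038). Vdac3, an outer-membrane pore, also rose. Ckmt2, the mitochondrial creatine kinase of striated muscle, had no count in LLC-CM and 43, 33, 51 and 58 counts in NCM, at least 14.1-fold lower with 3 counts per library as the floor.

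Of 12 tested regulators of mitochondrial biogenesis none rose and 3 fell in edgeR, Gabpa, Polg and Pprc1. Of all genes 18.8% were higher and 18.1% lower. DESeq2 called 0 higher and 4 lower, limma-voom 0 and 3, and edgeR with the length trend removed 0 and 2. At an unadjusted p under 0.05 edgeR had 1 higher and 5 lower. Gabpa, the DNA-binding subunit of the ETS factor whose motif is marked in the promoters above, measured 75.2, 74.2, 75.6 and 74.2 CPM in LLC-CM and 90.3, 87.9, 86.7 and 92.8 CPM in NCM. The groups lay apart, with a log2 fold change of -0.26 ± 0.05 (SE, edgeR, adjusted p = 0.0010). Nrf1 averaged 30.8 ± 1.44 CPM in LLC-CM and 34.6 ± 1.65 CPM in NCM (SD, n = 4 each) and did not pass (edgeR, adjusted p = 0.060). Tfam, which packages mitochondrial DNA, had a log2 fold change of 0.09 ± 0.08 (SE), and Ppargc1a, the coactivator known for driving the program, was listed at 0 in all libraries. Of 77 mitochondrial ribosomal proteins, which translate the mitochondrially encoded subunits, 21 rose and 1 fell, beside 18.8% and 18.1% of all genes. Their median log2 fold change was 0.09. Mrps6, at 53.0 ± 3.51 CPM in LLC-CM and 35.6 ± 2.50 CPM in NCM (SD, n = 4 each), Mrpl41 and Mrpl13 had the smallest adjusted p of those that rose, and Mrpl37 fell. With the length trend removed 9 of the 77 rose, a smaller share than the 18.0% of all genes, and 4 fell. Import genes rose in 3 of 20 cases, Tomm6, Timm8b and Tomm5, and in 1 of 20 with the length trend removed, beside 18.8% and 18.0% of all genes. None fell, nor did any in DESeq2, limma-voom or at an unadjusted p under 0.05. Among 9 genes of mitophagy and dynamics Fis1 and Mfn2 rose and Opa1, the inner-membrane fusion protein, fell. These counts, 2 higher and 1 lower, are read beside 18.8% and 18.1% of all genes. Of 2 tested uncoupling genes Slc25a27 fell (log2 fold change -0.43 ± 0.08, SE).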

How the data were processed

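RNA of 8 MC3T3 libraries was sequenced after poly(A) selection, from 200 ng of RNA with 12 PCR cycles, per the labels' protocols. The authors deposited raw read counts per gene, as whole numbers. CASAVA, STAR, featureCounts and mm10 are named in the submitters' processing notes, and their versions are not given in those notes. Columns were matched to samples by title.

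All 8 libraries entered 1 fit in R 4.3.3 with edgeR 4.0.16 (quasi-likelihood, robust, TMM factors, filterByExpr, no covariate), on limma 3.58.1, with Benjamini-Hochberg adjustment over 14991 genes at 0.05. It was tested on simulated data first. SE is the size of the log2 fold change over the square root of the F statistic. RPKM uses the deposited gene lengths. For some genes these differ from the exonic bases in GENCODE M21, so ranks and shares per length depend on them. Copies are other genes with at least 95% blastn 2.17.0 identity over at least 200 bases, and exonic overlap comes from GENCODE M21. Total counts per library ran from 27264212 to 35573953 reads. Replicates differed by more than sampling noise (the smallest chi-square per degree of freedom was 7.07), so none was merged, and their spread sets the precision.

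The members and the lists were chosen with earlier results of these data known. Named genes were, by class, up to 5 called members with the smallest adjusted p, every call in the rarer direction and the most abundant member per length. Isoform families, members nearest the minimum and up to 3 called genes of each other list were also named. Members and list genes beyond that were named after their values were seen. Alternatives were other scaling factors, other filters, limma-voom, DESeq2 1.42.0, a replicate block, a length trend removed, each library left out and a threshold of 0.01. Removing a GC trend was added after seeing the data. The values of 1 member are not reported here by name, though it is in the counts and sums.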

Additional observations from a re-analysis of the deposited data

Results flagged for a closer look

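Of 72 sets of 4 libraries examined, 4 held a library whose gap to the nearest of the others, as a share of the set's range, exceeded Dixon's 95% critical value. Chance gives about 1 in 20 such sets. Cox5a measured 42.2 CPM in NCM replicate 4, against 34.2 to 35.5 CPM in the other NCM libraries. Cox8a measured 61.8 CPM in NCM replicate 3, against 57.2 to 57.9 CPM in the others. Atp5g2 measured 91.6 CPM in LLC-CM replicate 4, against 75.1 to 77.1 CPM in the other LLC-CM libraries. The summed level of complex III was 572 CPM in NCM replicate 1, against 541 to 543 CPM in the other NCM libraries.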

How the results depend on the processing

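Over the 31 named members and 20 alternatives, 558 values kept direction and side of the threshold, 29 lost the call, 12 gained one and 21 changed sign. With each library left out, the members called higher ranged from 27 to 41, where 16% to 18% of all genes tested were. Those called lower ranged from 1 to 3, complex III called higher from 0 to 2 and Ndufaf factors called higher from 1 to 2. Upper-quartile factors and a minimum of 1 CPM in 4 or more libraries each left 1 member called lower. Removing the length trend gave 22 members higher (beside 18% of all genes), 11 in complex I, 0 in complex III and 3 in complex IV. Adding the replicate block to it gave 22 higher (beside 17.9% of all genes) and 4 lower. Of those higher, 11 were in complex I, 0 in complex III and 2 in complex IV. At an adjusted p of 0.01, 23 were higher (beside 13.4% of all genes) and 1 lower. Of those higher, 0 were in complex III, 3 in complex IV and 5 in complex V. Complex III had 2 higher with the replicate block or the GC trend removed. The replicate block alone gave 37 members higher (beside 18.7% of all genes) and 2 lower. Same-numbered libraries did not deviate together (r of 0.068, -0.044, 0.20 and -0.027), so the numbers were not taken as pairs, and not every library correlated best with its own number.

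Sign changes concerned members near 0 that no setting called. Uqcrh had log2 fold changes of -0.0080 (DESeq2 size factors), -0.0048 (no filter), -0.0074 (DESeq2), -0.026 (limma-voom), -0.027 (replicate block), -0.12 (length trend), -0.14 (length trend with block) and -0.011 (GC trend), and -0.16 to 0.095 with a library left out. With the length trend removed Ndufaf7 had -0.0074, Cox4i1 -0.0021, Cox6a1 -0.042 and Atp5g2 -0.012, and with the block added Ndufaf7 had -0.0078, Cox6a1 -0.042 and Atp5g2 -0.010. Atp5g2 ranged from -0.0045 to 0.15 with a library left out. By counts instead of reads per kilobase, the share of Cox7a2l was 69.2% in LLC-CM and 73.9% in NCM, of Atp5g1 23.0% and 22.2%, of Atp5g2 25.1% and 26.9%, and of Ndufa4l2 9.29% in NCM. The causes of these shifts were not tested, other than that the stricter threshold calls fewer genes by construction.

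Uqcrfs1 lost its call in 10 settings (adjusted p up to 0.11), Uqcr11 in 6 (up to 0.18), Cox7b and Atp5g3 in 4 each, Cox5a in 3, and Cox6b1 and Ndufa4l2 in 1 each. Atp5g1 and Cox7a2l gained a call in 4 settings each, Atp5sl in 2, and Cox7a2 and Cox8a in 1 each. The 7 genes under the count minimum were too sparse to test.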
